A study of Mus musculus with 6 samples.

Results

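The genes described here are 40 genes of choline uptake, phosphatidylcholine synthesis, the methionine cycle and one-carbon metabolism, taken by gene symbol from a table of 28601 genes. All 40 were found and all 40 passed the filter on low counts, which left 18648 genes for testing. RNA was measured in liver of 3 PRDX1 Cys52Ser male mice and 3 WT male mice, 1 library per mouse. PRDX1 is a peroxiredoxin, an enzyme that reduces peroxides through a cysteine, and Cys52Ser names the exchange of cysteine 52 for serine. Both groups were 8 weeks old when they went on CDAHFD and ate it for 8 weeks, so the diet is common to all 6 mice, and no group on another diet is analysed here. A separate treatment field counts 11 to 13 weeks in the PRDX1 Cys52Ser samples and 8 to 10 weeks in the WT samples; if that field were literal, genotype and time on diet could not be told apart. The labels give neither strain nor whether the Cys52Ser mice carry 1 or both altered alleles. Prdx1 itself had 859, 661 and 819 CPM (counts relative to library size) in Cys52Ser livers, against 864, 919.5 and 978 CPM in WT livers, and did not pass the test (log2 fold change -0.24, adjusted p = 0.421). Gene-level values do not show the substitution, so they do not check the genotype labels.

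CDAHFD is a choline-deficient, amino acid-defined, high-fat diet used to bring on fatty liver and fibrosis in mice. Choline enters cells through transporters and is either phosphorylated and built into phosphatidylcholine, the main membrane phospholipid, or oxidised to betaine, whose methyl group returns homocysteine to methionine. Methionine is the source of S-adenosylmethionine, the methyl donor with which liver can also make phosphatidylcholine from phosphatidylethanolamine. Serine, glycine and folate supply further one-carbon units to the same cycle.

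Levels are TMM-scaled CPM, that is, counts relative to library size after a correction for the makeup of each library, and fold changes are Cys52Ser over WT. Library totals were 53318196 to 73900923 counts. The libraries also differed in cell-type markers: the summed level of 10 hepatocyte markers was 139304 to 173291 CPM in Cys52Ser livers and 61853 to 99074 CPM in WT livers, with 2 of the 10 higher (Hnf4a and Cps1) and none at 0. The largest part of this sum was Alb, itself not called, at 85846 to 104319 CPM in Cys52Ser and 29788 to 53149 CPM in WT. All 10 had a positive log2 fold change, with a median of 0.73. Pericentral hepatocyte markers summed to 10232 to 12793 CPM in Cys52Ser and 3225 to 7309.5 CPM in WT (0 of 8 called), and periportal hepatocyte markers to 6330.3 to 8827 CPM in Cys52Ser and 2154 to 5114 CPM in WT (2 of 8 higher). Most of the pericentral sum was Cyp2e1, at 7632 to 9506 CPM in Cys52Ser and 2167 to 5495 CPM in WT. Of the 8 pericentral markers 7 had a positive log2 fold change, and Lgr5 was at -0.20. Stellate cell and fibroblast markers were lower for 5 of 10, those of monocyte-derived and lipid-associated macrophages for 5 of 8 and cholangiocyte markers for 2 of 7, while 2 of 6 Kupffer cell markers and 3 of 7 sinusoidal endothelial markers were higher and 0 of 7 lymphocyte markers were called. None of these markers was at 0 in every library. In bulk liver, more cells of a type and more RNA per cell cannot be told apart, and the part of cell makeup in the members' values was not tested.

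Of the 40 genes, 10 were higher in Cys52Ser livers and 0 were lower (edgeR quasi-likelihood test, Benjamini-Hochberg adjusted p under 0.05 over all 18648 genes). This was 25% of the members, all in 1 direction, beside 2.52% of all tested genes called higher and 2.46% called lower. The 10 were Ahcy, Gldc, Aldh1l1, Sardh, Mat1a, Bhmt2, Mthfd1, Shmt1, Shmt2 and Pcyt1a, with folds of 1.39 to 2.91. At an unadjusted p under 0.05, 21 members were higher and 2, Chkb and Amt, were lower. The share of all tested genes past this cut was not worked out, so these 2 counts have nothing to be set beside. In 24 members (60.0%) every Cys52Ser library lay above every WT library, beside 14.4% of all tested genes, and in 2 members (5.0%) every Cys52Ser library lay below, beside 15.2%. The median log2 fold change of the members was 0.48, against 0.00 over all tested genes. The number of calls depended on single libraries, over all genes as over the members. Leaving out Cys52Ser replicate 1, Cys52Ser replicate 3 or WT replicate 2 in turn left 0 members past the threshold, in fits that called 0.161%, 0.145% and 0.295% of all genes in either direction. Without Cys52Ser replicate 2, 6 members passed beside 2.6% of all genes, without WT replicate 1 the 1 member Sardh beside 2.15%, and without WT replicate 3, 9 members beside 4.06%, all of these members higher. The members' median stayed between 0.37 and 0.51 in the 6 fits that leave out a library.

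Under 3 scalings the members' median stood 0.48 to 0.50 above that of all genes, while the direction of single genes changed. With library totals alone the median of all genes was -0.35 and that of the members 0.13, and 8 members were higher and 5 lower, beside 1.57% and 14.6% of all genes. With libraries scaled to the hepatocyte markers, a setting chosen after seeing the data, the median of all genes was -0.80 and that of the members -0.30. Under that scaling 1 member (Ahcy) was higher and 9 were lower, beside 0.408% and 35.9% of all genes. The 10 called members then had log2 fold changes of -0.34 (Pcyt1a) to 0.78 (Ahcy). Of the 32 members that were positive with TMM, 19 turned negative under hepatocyte marker scaling: Ahcyl1, Aldh7a1, Cept1, Chdh, Chka, Chpt1, Cth, Dmgdh, Etnk1, Gamt, Mat2a, Mthfd1l, Mtr, Mtrr, Pcyt1a, Pcyt2, Pemt, Psph and Shmt2. With library totals alone 9 of these did, none of them called: Ahcyl1, Cept1, Chdh, Chka, Etnk1, Mthfd1l, Mtr, Mtrr and Psph. Under each of these 3 scalings 32 of the 40 members lay above the median of all genes. Scaling moves all genes of a library alike, so this count and the gap between the medians could hardly differ between the 3. In limma fits on log2 FPKM with pseudocounts of 0.5, 0.1 and 1 the gap was 0.37, 0.45 and 0.32. There 29, 30 and 29 members lay above the median of all genes. DESeq2 in place of edgeR called 19 members higher and 0 lower, beside 8.04% and 7.21% of all genes it tested. On the deposited FPKM, which carry no correction for library makeup, the Cys52Ser libraries of 13 members all lay above the WT libraries and those of 9 all lay below, beside 4.71% and 37.7% of all tested genes.

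**Figure D1:**
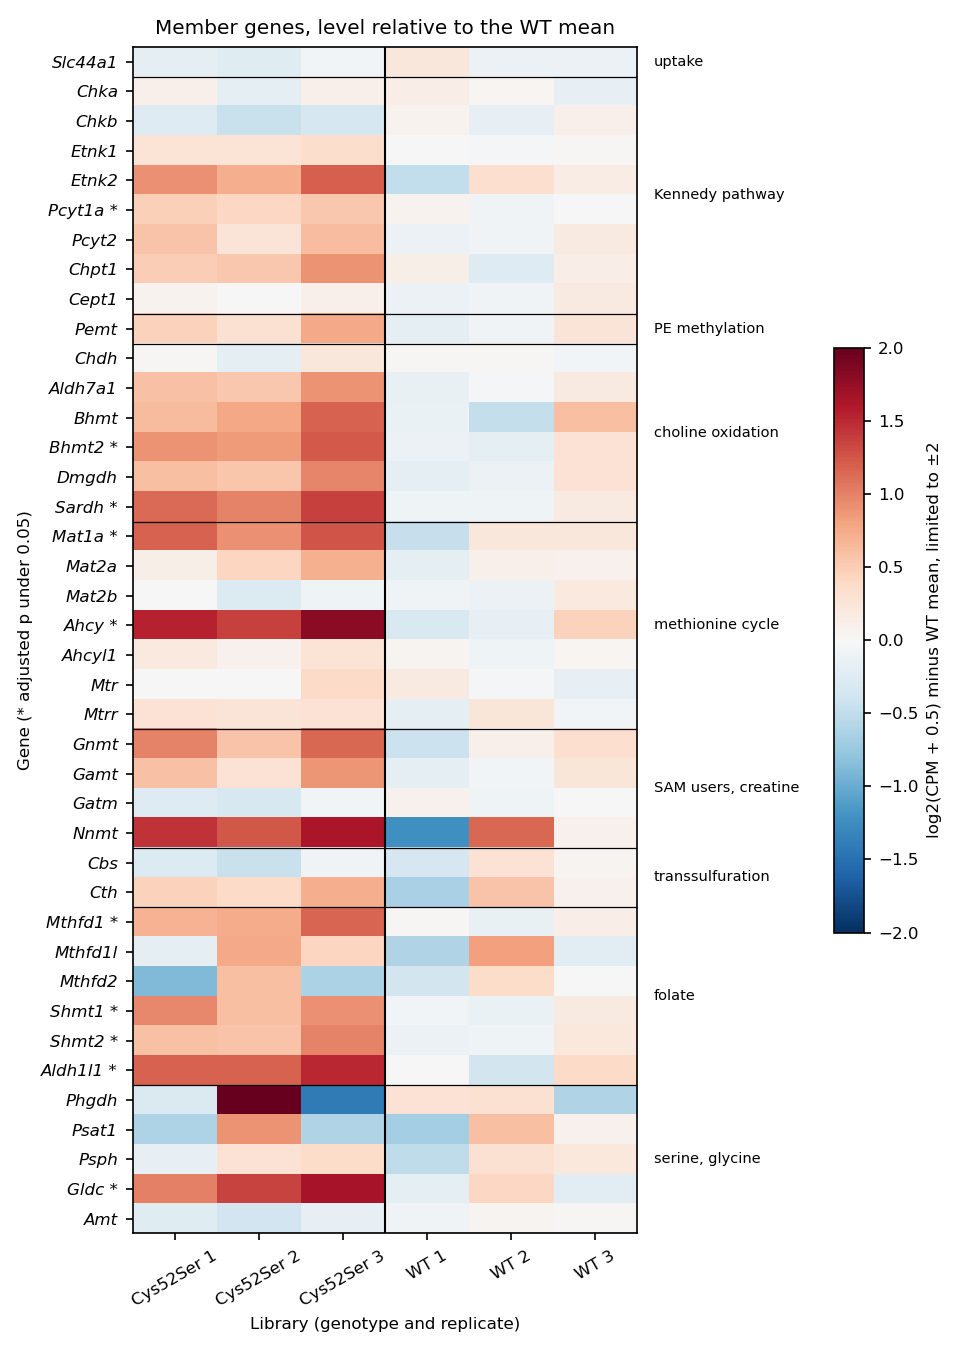
Level of each of the 40 genes (rows, grouped by role) in the 6 libraries (columns, Cys52Ser left of WT), as log2(CPM + 0.5) minus the mean of the 3 WT libraries, with TMM-scaled CPM; asterisks mark the 10 genes with an adjusted p under 0.05. Red fills most rows of the Cys52Ser columns, while Slc44a1, Chkb, Mat2b, Gatm, Cbs and Amt were level or blue; with hepatocyte marker scaling 19 of the positive members turned negative, Pcyt1a and Shmt2 of the 10 among them.

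**Figure D2:**
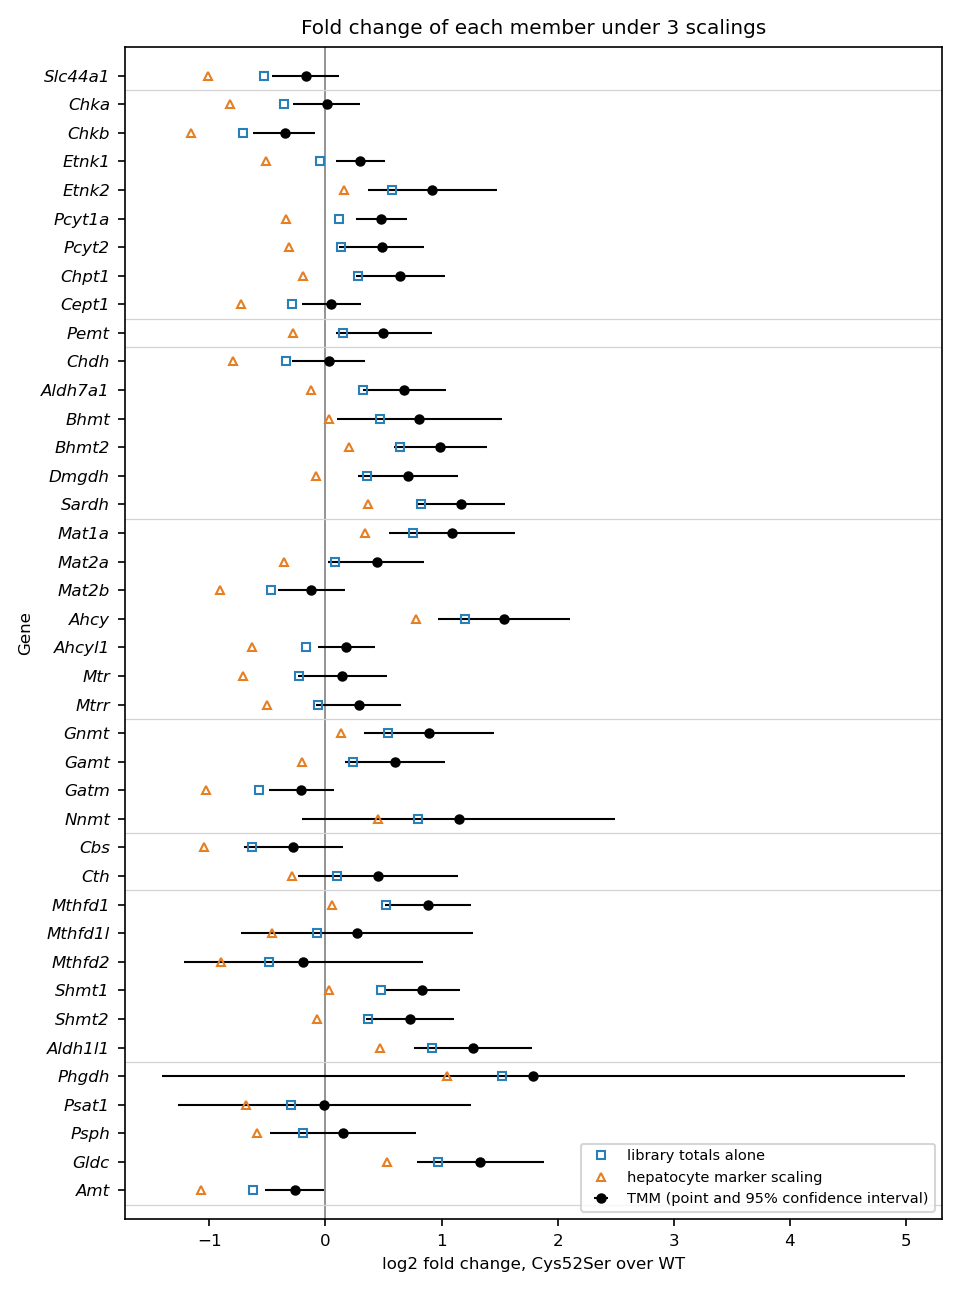
Log2 fold change (Cys52Ser over WT) of each gene with TMM factors (black points with 95% confidence intervals), with library totals alone (blue squares) and with hepatocyte marker scaling (orange triangles). Each gene lay further left under the other scalings, and under hepatocyte marker scaling Ahcy, at 0.78, was the 1 member still called higher.

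Slc44a1, which encodes a choline transporter of the plasma membrane and mitochondria, had 40.2, 38.5 and 43.9 CPM in Cys52Ser livers, against 53.5, 42.2 and 42.1 CPM in WT livers. The groups overlapped and the gene did not pass the test (log2 fold change -0.17 ± 0.12 SE, adjusted p = 0.491).

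In the Kennedy pathway, in which choline and ethanolamine are phosphorylated, activated with CTP and joined to diacylglycerol, 1 of 8 genes was higher and 0 were lower (median log2 fold change 0.39). The gene that passed was Pcyt1a, the enzyme that activates phosphocholine with CTP and sets the pace of phosphatidylcholine synthesis. It had 91.6, 88.1 and 96.4 CPM in Cys52Ser livers, against 69.3, 63.1 and 65.5 CPM in WT livers. The groups were tight and did not overlap on this scale, a 1.39-fold difference (log2 fold change 0.48 ± 0.09 SE, adjusted p = 0.0389), but on the deposited FPKM scale they overlapped, with 9.71 ± 0.323 FPKM in Cys52Ser and 8.90 ± 1.02 FPKM in WT (SD, n = 3 each), and with hepatocyte marker scaling the log2 fold change was -0.34. The choline kinases, which do the first step, did not pass. Chka had 50.8, 41.8 and 50.9 CPM in Cys52Ser livers, against 51.7, 48.6 and 42.1 CPM in WT livers, with full overlap. Chkb had 36.1, 31.4 and 33.9 CPM in Cys52Ser livers, against 45.0, 38.3 and 46.3 CPM in WT livers (log2 fold change -0.35, adjusted p = 0.116), and was 1 of the 2 members whose Cys52Ser libraries all lay below the WT libraries. Gm44502, a gene model that overlaps it on the same strand, was higher (log2 fold change 1.31, adjusted p = 0.0262), so how the authors' counting divided reads between them bears on this value. Pcyt2, the matching enzyme of the ethanolamine branch, had 476, 385 and 496 CPM in Cys52Ser livers, against 298, 307 and 364 CPM in WT livers (adjusted p = 0.12). Etnk1, Etnk2 (ethanolamine kinases) and Chpt1 (the cholinephosphotransferase) likewise lay above WT in every library, with log2 fold changes of 0.30, 0.92 and 0.64 and adjusted p of 0.0994, 0.072 and 0.0713, and Cept1, which joins either head group, was level at 0.05.

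The Pcyt1a gene lies at chr16:32430921-32475070 on the plus strand (GRCm38). Its upstream sequence is shown because, of the 9 called members with a promoter window in RefSeq (all but Mat1a), it was the 1 with a match to any motif searched for. The 250 bases before its RefSeq start site, chr16:32430671-32430920 (GRCm38.p6, plus strand), are 71.6% G or C and hold 1 match to the antioxidant response element core, in capitals.
Pcyt1a: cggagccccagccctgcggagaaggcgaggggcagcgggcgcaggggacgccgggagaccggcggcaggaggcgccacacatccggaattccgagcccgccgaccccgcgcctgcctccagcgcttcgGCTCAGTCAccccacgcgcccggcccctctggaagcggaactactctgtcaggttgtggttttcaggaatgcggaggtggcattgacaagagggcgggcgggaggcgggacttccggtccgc
The match starts 122 bases before the start site and reads GCTCAGTCA, the reverse complement of the searched core TGACNNNGC. RefSeq gives Pcyt1a a second start site further downstream, whose window holds this match and 2 others, TGACTTCGC and TGACGCGGC, 57 and 41 bases before that start. Such matches are common and are a description, not a binding site: promoter windows of 250 bases before to 50 after the start were in RefSeq for 35 of the 40 genes (47 windows), and 7 of these windows (14.9%) held the core on either strand, beside 12.4% of 32851 windows of all genes. They belonged to Ahcyl1, Amt, Etnk1, Pcyt1a, Phgdh and Psph. The C/EBP-ATF response element core TGATGNAA was in 0 of the 47 windows, beside 3.97% of all, and the E-box CACGTG in 1 (2.13%, Cbs), beside 7.15%.

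Pemt encodes the enzyme that methylates phosphatidylethanolamine to phosphatidylcholine with S-adenosylmethionine, a route that is strong in hepatocytes. It had 341, 305 and 418 CPM in Cys52Ser livers, against 216, 237 and 297 CPM in WT livers. Every Cys52Ser library was above every WT library on this scale, but the gene did not pass the test (log2 fold change 0.50 ± 0.18 SE, adjusted p = 0.15), and the log2 fold change was 0.15 with library totals alone and -0.28 with hepatocyte marker scaling.

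Among the 6 genes that oxidise choline to betaine and break down the methylglycines that follow, 2 were higher, Sardh and Bhmt2, and 0 were lower (median log2 fold change 0.76). In 5 of the 6, all but Chdh, every Cys52Ser library lay above every WT library. Sardh, the mitochondrial dehydrogenase that turns sarcosine into glycine, had 774, 708 and 918 CPM in Cys52Ser livers, against 332, 334 and 401 CPM in WT livers. This 2.25-fold difference (log2 fold change 1.17 ± 0.16 SE, adjusted p = 0.0198) was the member result with the smallest adjusted p, and it was the one call that also passed without WT replicate 1. Bhmt2, a methyltransferase that uses S-methylmethionine to remethylate homocysteine, had 234, 227 and 293 CPM in Cys52Ser livers, against 116, 111 and 153 CPM in WT livers (1.99-fold, log2 fold change 0.99 ± 0.17 SE, adjusted p = 0.0299). Its lowest Cys52Ser library was well above its highest WT library. Bhmt, the betaine-homocysteine methyltransferase, which ranked 128 by mean FPKM in Cys52Ser and 155 in WT, had 2205, 2429.8 and 3224 CPM in Cys52Ser livers, against 1302, 1021 and 2157 CPM in WT livers. The groups just failed to overlap and the test was not passed (log2 fold change 0.81 ± 0.30 SE, adjusted p = 0.168). Dmgdh, the dimethylglycine dehydrogenase, had 394, 381 and 509.6 CPM in Cys52Ser livers, against 229, 239.6 and 315 CPM in WT livers (log2 fold change 0.71, adjusted p = 0.0727). Aldh7a1, a betaine aldehyde dehydrogenase, lay next to the threshold (log2 fold change 0.68, adjusted p = 0.0525). Chdh, the choline dehydrogenase that starts the route in mitochondria, differed from these: it had 180.4, 156 and 209 CPM in Cys52Ser livers, against 181, 182 and 172 CPM in WT livers, with a log2 fold change of 0.03 and a 95% confidence interval of -0.29 to 0.34.

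Bhmt, Bhmt2 and Dmgdh are neighbours on chromosome 13 (GRCm38), at chr13:93616675-93637961 and chr13:93655720-93674302 on the minus strand and chr13:93674433-93752833 on the plus strand. Bhmt2 and Dmgdh start head to head, with 133 bases between their RefSeq start sites. These bases, chr13:93674303-93674435 (GRCm38.p6), are shown on the Bhmt2 strand because the pair shares them; they are 69.9% G or C and held none of the 3 motifs.
Bhmt2 and Dmgdh: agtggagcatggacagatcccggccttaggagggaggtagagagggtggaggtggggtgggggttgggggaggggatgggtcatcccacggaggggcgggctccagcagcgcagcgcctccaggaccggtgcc
The 2 genes had log2 fold changes of 0.99 (Bhmt2) and 0.71 (Dmgdh), and Dmgdh did not pass the edgeR test (adjusted p = 0.0727). In both the third Cys52Ser library was the highest of all 6. This is not particular to the pair, as replicate 3 was the highest Cys52Ser library for 33 of the 40 members. Shared control of the pair was not tested.

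Of 7 methionine cycle genes, 2 were higher, Ahcy and Mat1a, and 0 were lower (median log2 fold change 0.29). Ahcy encodes the hydrolase that clears S-adenosylhomocysteine, the product and inhibitor of methyl transfer. It had 1839, 1632 and 2214 CPM in Cys52Ser livers, against 512, 568 and 875 CPM in WT livers. The lowest Cys52Ser library was nearly double the highest WT library, and the fold of 2.91 (log2 fold change 1.54 ± 0.24 SE, adjusted p = 0.0243) was the highest of the called members. Per length, Ahcy was at 526 ± 44.4 FPKM in Cys52Ser and 229 ± 49.8 FPKM in WT (SD, n = 3 each), which put its mean at rank 90 of 28601 genes in Cys52Ser and rank 183 in WT. Mat1a, the methionine adenosyltransferase of adult hepatocytes, had 3753, 3114 and 3960.1 CPM in Cys52Ser livers, against 1203, 1941 and 1935 CPM in WT livers. The groups were apart, with 1 low WT library (2.13-fold, log2 fold change 1.09 ± 0.23 SE, adjusted p = 0.045), and by FPKM the mean ranked 54 in Cys52Ser and 86 in WT. Mat2a, the isoenzyme of most other cells, had 208, 259 and 314 CPM in Cys52Ser livers, against 168, 206 and 203 CPM in WT livers (log2 fold change 0.44, adjusted p = 0.198). Its regulatory partner Mat2b, the AHCY-like Ahcyl1, the B12-dependent methionine synthase Mtr and its reductase Mtrr had log2 fold changes of -0.12 to 0.29, and none of them passed.

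The Ahcy gene lies at chr2:155059310-155074497 on the minus strand (GRCm38). Its upstream 250 bases, chr2:155074498-155074747 (GRCm38.p6, minus strand, 52.8% G or C), are shown as those of the called member with the highest fold; none of the 3 motifs was found in them.
Ahcy: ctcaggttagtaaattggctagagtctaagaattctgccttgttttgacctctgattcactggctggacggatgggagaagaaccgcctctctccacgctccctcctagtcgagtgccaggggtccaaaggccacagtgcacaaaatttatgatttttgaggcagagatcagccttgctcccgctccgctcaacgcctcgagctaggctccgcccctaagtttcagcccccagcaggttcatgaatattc
Ahcy also has near-identical copies, so reads could be divided among them. In GENCODE M21, Gm4737 matched its transcript at 99.7% identity over 2083 of 2543 bases and Gm9826 at 99.2% over 1299 bases. With both copies added, Ahcy had 2339.8, 2088 and 2795 CPM in Cys52Ser livers, against 649, 715 and 1104 CPM in WT livers, and the log2 ratio of means was 1.55 with the copies and 1.54 without. Bhmt likewise gave 0.82 with 2 copies added and 0.81 without.

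None of the 4 genes that use S-adenosylmethionine in other ways or make creatine passed the test, although the median log2 fold change was 0.74. Gnmt, the glycine N-methyltransferase that takes up surplus methyl groups in hepatocytes, had 721, 539.8 and 799 CPM in Cys52Ser livers, against 267, 386 and 459 CPM in WT livers. The groups did not overlap (log2 fold change 0.89 ± 0.24 SE, adjusted p = 0.0803). Nnmt, which methylates nicotinamide, had 131, 114 and 149 CPM in Cys52Ser livers, against 20.1, 107 and 50.7 CPM in WT livers. The Cys52Ser libraries were alike while the WT libraries spread 5.33-fold, so the log2 fold change of 1.15 had an SE of 0.55 (adjusted p = 0.291). Gamt and Gatm, the enzymes of creatine synthesis, had log2 fold changes of 0.60 (adjusted p = 0.109) and -0.21 (adjusted p = 0.352).

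Neither transsulfuration gene passed. Cbs, which condenses homocysteine with serine, had 152, 135 and 176 CPM in Cys52Ser livers, against 146, 224 and 190.2 CPM in WT livers (log2 fold change -0.28 ± 0.18 SE, adjusted p = 0.436). Cth, which cleaves the cystathionine so formed to cysteine, had 289, 276 and 350.1 CPM in Cys52Ser livers, against 134, 312 and 223 CPM in WT livers (log2 fold change 0.45, adjusted p = 0.426). Both genes overlapped between the groups, and in both WT replicate 2 was the highest WT library and WT replicate 1 the lowest.

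The folate enzymes held the most calls of any role: 4 of 6 were higher, Aldh1l1, Mthfd1, Shmt1 and Shmt2, and 0 were lower (median log2 fold change 0.78). Aldh1l1, the cytosolic dehydrogenase that removes formyl groups from the folate pool as carbon dioxide, had 753, 753 and 945 CPM in Cys52Ser livers, against 330, 256 and 430.2 CPM in WT livers (2.41-fold, log2 fold change 1.27 ± 0.22 SE, adjusted p = 0.0285). Mthfd1, the cytosolic enzyme that interconverts the folate one-carbon forms, had 151, 156 and 209 CPM in Cys52Ser livers, against 94.4, 84.4 and 102 CPM in WT livers (1.84-fold, adjusted p = 0.0317). In both genes the groups were far apart, with the third Cys52Ser library highest. Shmt1, the cytosolic serine hydroxymethyltransferase, had 132, 103 and 127 CPM in Cys52Ser livers, against 65.1, 61.4 and 76.8 CPM in WT livers (1.78-fold, adjusted p = 0.0267). Shmt2, its mitochondrial counterpart, had 187, 185 and 247 CPM in Cys52Ser livers, against 114, 117 and 143 CPM in WT livers (1.66-fold, adjusted p = 0.049996, at the edge of the threshold). Neither pair of groups overlapped. With hepatocyte marker scaling none of the 4 was called, with log2 fold changes of 0.47 for Aldh1l1, 0.06 for Mthfd1, 0.03 for Shmt1 and -0.07 for Shmt2. The other mitochondrial folate genes were far less abundant and overlapped. Mthfd1l, which releases formate, had 7.71, 15.2 and 12.1 CPM in Cys52Ser livers, against 5.65, 15.9 and 7.52 CPM in WT livers. Mthfd2, a dehydrogenase typical of growing cells, had 4.62, 13.8 and 5.63 CPM in Cys52Ser livers, against 6.82, 11.7 and 8.99 CPM in WT livers. Their adjusted p were 0.768 and 0.848.

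Of 5 genes of serine synthesis and glycine cleavage, 1 was higher, Gldc, and 0 were lower (median log2 fold change 0.15). Gldc, the decarboxylase of the glycine cleavage system, had 119, 152 and 186 CPM in Cys52Ser livers, against 51.6, 79.0 and 50.8 CPM in WT livers. Every Cys52Ser library was above every WT library, a 2.52-fold difference (log2 fold change 1.33 ± 0.23 SE, adjusted p = 0.0302). Amt, the aminomethyltransferase of the same complex, had 22.0, 19.7 and 23.2 CPM in Cys52Ser livers, against 24.6, 27.1 and 26.3 CPM in WT livers. It was the other member whose Cys52Ser libraries all lay below the WT libraries, and it did not pass the test (log2 fold change -0.26, adjusted p = 0.201). The serine synthesis genes were low and varied more between mice than between genotypes. Phgdh, which takes the first step, had 2.11, 26.4 and 0.689 CPM in Cys52Ser livers, against 3.39, 3.44 and 1.59 CPM in WT livers. The Cys52Ser libraries thus spread 38.3-fold, with replicate 2 far above the rest, and the log2 fold change of 1.79 had an SE of 1.3 (adjusted p = 0.493). Phgdh has 8 near-identical copies, 6 of them in the table, and replicate 2 stood out with these added as well, at 3.29, 34.6 and 1.15 CPM in Cys52Ser livers and 4.89, 5.49 and 2.76 CPM in WT livers. Psat1, the next enzyme, had 8.15, 24.2 and 8.31 CPM in Cys52Ser livers, against 7.77, 19.7 and 13.6 CPM in WT livers. Psph, the last, had 6.91, 9.70 and 10.2 CPM in Cys52Ser livers, against 5.31, 9.77 and 9.10 CPM in WT livers. Replicate 2 was the highest of its genotype for Psat1, Mthfd2 and Mthfd1l in both groups. In Cys52Ser replicate 2 a few markers of other cell types stood out too, while most did not. The stellate cell and fibroblast markers summed to 951, 1118 and 894 CPM in Cys52Ser livers, against 1506 to 2664 CPM in WT livers, and replicate 2 was the highest Cys52Ser library for 4 of the 10, with 16.5, 90.4 and 9.86 CPM of Acta2 and 10.7, 60.1 and 9.76 CPM of Des, but 55.5, 41.1 and 45.7 CPM of Lum. The cholangiocyte markers summed to 177, 431 and 145 CPM in Cys52Ser livers, against 621 to 1314 CPM in WT livers, and replicate 2 was the highest Cys52Ser library for 4 of the 7, with 7.77, 61.7 and 5.61 CPM of Krt19. The part of cell makeup in the Phgdh value was not tested.

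**Figure D3:**
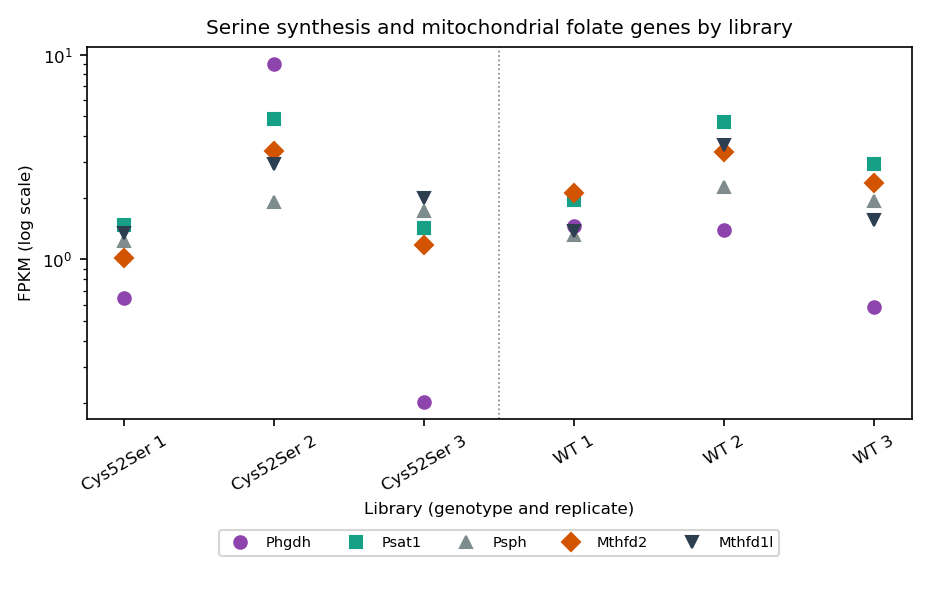
FPKM (log axis) of the serine synthesis genes Phgdh, Psat1 and Psph and the mitochondrial folate genes Mthfd2 and Mthfd1l in each library, Cys52Ser left of WT. Phgdh in Cys52Ser replicate 2, at 9 FPKM, stood far above 0.651 and 0.202 FPKM in the other Cys52Ser libraries.

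**Figure D4:**
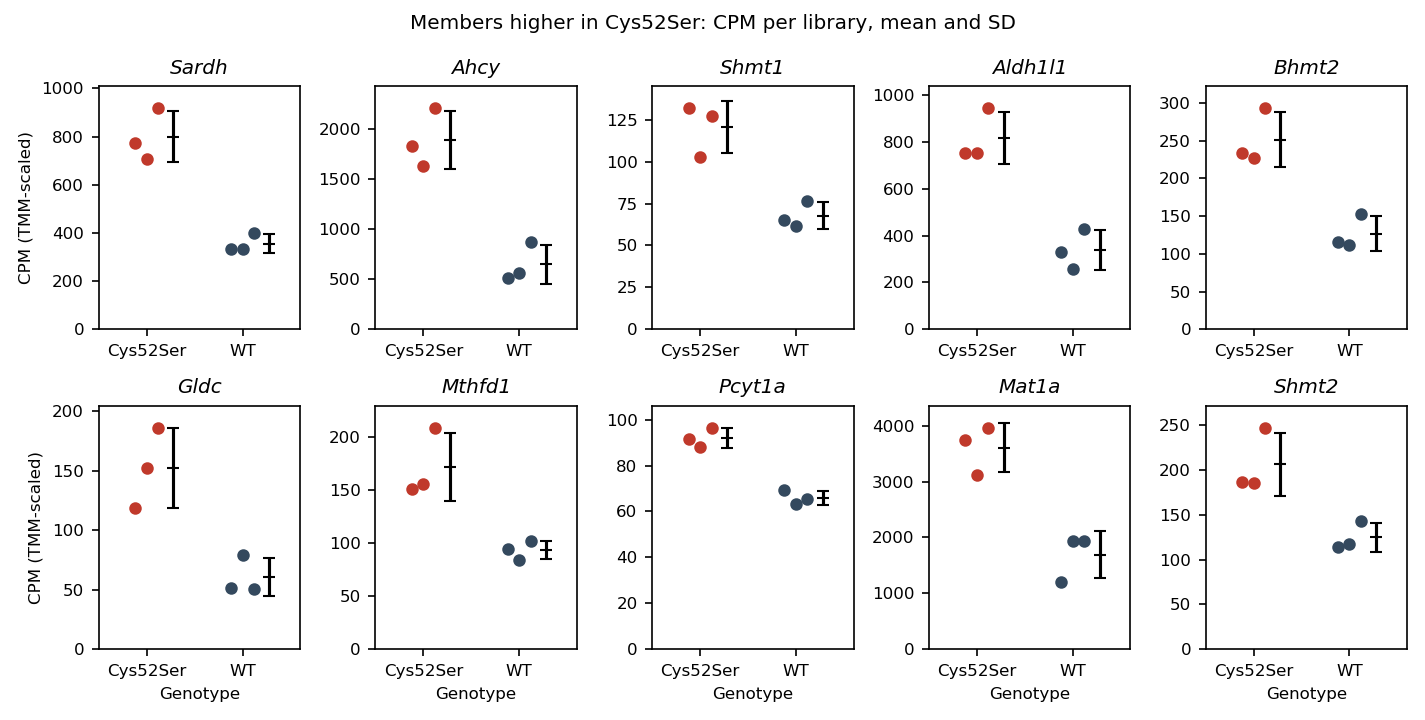
TMM-scaled CPM of the 10 called genes in each library (points), Cys52Ser left of WT, with the mean and SD of each group beside them. In all 10 the groups did not overlap on this scale, and the panels run from the smallest p (Sardh) to the largest (Shmt2); with hepatocyte marker scaling their log2 fold changes ran from -0.34 (Pcyt1a) to 0.78 (Ahcy), with Ahcy alone still called.

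Of the 40 genes, 18 have exons that overlap another gene, 18 with one on the opposite strand and 2 with one on the same strand. Aldh1l1, Mthfd1, Pcyt1a, Sardh, Shmt1 and Shmt2 are among them. The submitters do not state if reads were assigned by strand, and these values may hold reads of the neighbours. As counted, Smcr8, which overlaps Shmt1, had a mean of 43.1 CPM in Cys52Ser and 36.3 CPM in WT. Ndufa4l2, which overlaps Shmt2, had 1.86 and 2.05 CPM. The other genes whose exons overlap these 6 had means of at most 0.262 CPM in either group. How counting divided the reads was not tested. Cys52Ser replicate 3 was the highest Cys52Ser library for 33 of the 40 genes and Cys52Ser replicate 2 the lowest for 28. In WT, replicate 1, which also had the lowest hepatocyte marker sum of the 6 libraries (61853 CPM), was the lowest WT library for 22 genes. A spread of over 2-fold within a genotype was seen for 3 genes in Cys52Ser (Phgdh, Mthfd2 and Psat1) and for 6 in WT (Nnmt, Mthfd1l, Psat1, Cth, Phgdh and Bhmt). Abundance also went with the difference: of the 20 members above the median mean level of 20.6 FPKM, 8 were called and the median log2 fold change was 0.82, whereas of the 20 below it 2 were called and the median was 0.10. Across the 40 genes, which share the same 6 libraries, Spearman's rho between mean FPKM and log2 fold change was 0.59, against 0.19 over the 18648 tested genes. The mean FPKM takes in the Cys52Ser libraries, so level and fold change are not independent. The share called among all genes at these levels was not worked out.

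Ratios between 2 genes within a library do not depend on how libraries are scaled. For this reason 6 pairs that do the same, branching or successive steps were compared on FPKM. The test was a two-sided exact permutation test, whose smallest p with 3 against 3 mice is 0.1. No pair could therefore pass 0.05, and adjustment was over the 6 pairs. The ratio of Mat1a to Mat2a was 23.3, 15.5 and 16.3 in Cys52Ser livers, against 9.26, 12.2 and 12.3 in WT livers, with no overlap (log2 difference 0.70, exact p = 0.1, adjusted 0.2). The ratio of Cbs to Bhmt was 0.053, 0.0428 and 0.0419 in Cys52Ser livers, against 0.0862, 0.169 and 0.0678 in WT livers, also with no overlap (log2 difference -1.13, exact p = 0.1, adjusted 0.2). The ratio of Chka to Chkb was 0.358, 0.338 and 0.382 in Cys52Ser livers, against 0.292, 0.323 and 0.231 in WT livers, again without overlap (log2 difference 0.36, exact p = 0.1, adjusted 0.2). These pairs set the hepatic against the general methionine adenosyltransferase, a transsulfuration against a remethylation enzyme and the 2 choline kinases against each other, and none passed the test. How counting divided reads between Chkb and the overlapping gene model Gm44502 bears on the Chka to Chkb ratio as well. Its part in the lack of overlap was not tested. The ratio of Pemt to Pcyt1a, the 2 routes to phosphatidylcholine, was 13.1, 12.2 and 15.3 in Cys52Ser livers, against 11, 13.2 and 16 in WT livers (log2 difference 0.02, exact p = 1.0). Pcyt2 to Pcyt1a, the ethanolamine against the choline branch, also overlapped (log2 difference 0.00, exact p = 1.0), as did Mthfd2 to Mthfd1l (log2 difference -0.69, exact p = 0.2, adjusted 0.3).

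**Figure D5:**
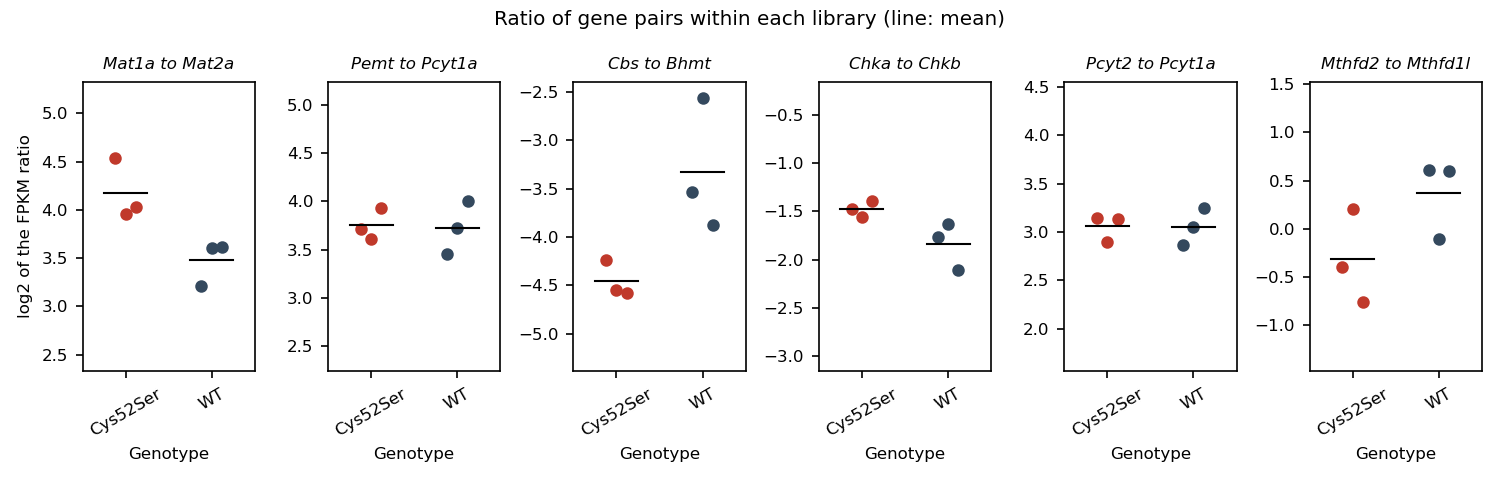
Log2 of the FPKM ratio of 6 gene pairs in each library (points) with the group mean (line), Cys52Ser left of WT; every panel spans the same 3 log2 units. Mat1a to Mat2a and Chka to Chkb lay higher and Cbs to Bhmt lower in every Cys52Ser library, while Pemt to Pcyt1a and Pcyt2 to Pcyt1a had the same mean to within 0.02. The Chka to Chkb ratio also depends on how reads were divided between Chkb and Gm44502.

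Of 78 other genes of the same pathways, all tested, 6 were higher and 4 lower (12.8% called either way, beside 4.98% of all tested genes), with a median log2 fold change of 0.13 and every called gene without overlap between the groups. The 6 were Slc25a48, a mitochondrial carrier linked to choline import (2.52-fold, adjusted p = 0.0207); Slc43a1, a transporter of large neutral amino acids (2.15-fold, adjusted p = 0.0441); Fpgs, which adds glutamates to folates (2.05-fold, adjusted p = 0.0234); Mpst, a sulfurtransferase of cysteine breakdown (1.79-fold, adjusted p = 0.0318); Mmut, the B12-dependent methylmalonyl-CoA mutase (1.64-fold, adjusted p = 0.0389); and Suox, the sulfite oxidase (1.39-fold, adjusted p = 0.0487). Slc25a48 had 17.1, 14.7 and 23.3 CPM in Cys52Ser livers, against 7.55, 7.42 and 6.90 CPM in WT livers, with the lowest Cys52Ser library nearly double any WT library. The 4 lower genes were Csad, a decarboxylase of taurine synthesis (1.93-fold lower, adjusted p = 0.0207), the creatine transporter Slc6a8 (1.83-fold lower, adjusted p = 0.0169), the phospholipase D gene Pld1 (1.73-fold lower, adjusted p = 0.0467) and Lpcat2, an acyltransferase of phosphatidylcholine remodelling found in macrophages (1.65-fold lower, adjusted p = 0.0375). Csad had 60.2, 58.4 and 67.9 CPM in Cys52Ser livers, against 104, 116 and 140 CPM in WT livers, so that 1 enzyme of cysteine use was lower while 2 others, Mpst and Suox, were higher. Leaving out Cys52Ser replicate 1, Cys52Ser replicate 3 or WT replicate 2 in turn, 0 of the 78 passed in either direction. These fits called 0.161%, 0.145% and 0.295% of all genes. Without WT replicate 1, 2 were higher and 2 lower, beside 2.15% of all genes called either way. Without Cys52Ser replicate 2, 2 were lower, beside 2.6% called either way. The fit without WT replicate 3 had the most lower genes of these fits, beside 4.06% called either way, within the range given further below. With library totals alone 17 were lower, beside 14.6% of all genes. With hepatocyte marker scaling 0 were higher and 31 lower, beside 0.408% and 35.9% of all genes.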

How the data were processed

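RNA was measured in liver of 3 PRDX1 Cys52Ser and 3 WT mice. Per the labels' protocols, oligo(dT)-selected RNA was made into dUTP-marked libraries with molecular identifiers and sequenced as paired reads. Tools in the submitters' processing notes, given with no order or role, are HISAT2 2.0.4, StringTie 1.3.4d, UMI-tools, cutadapt 1.9, edgeR and DESeq2. These notes give mm9 as the build, but positions in the table are GRCm38: of 28524 identifiers found in GENCODE M21, 86.8% had identical coordinates. Per the file headers, the authors' single deposited table gives each gene an estimated count and FPKM in each library. The counts are whole numbers, but for 89.9% to 92.4% of single-transcript genes with 1000 counts or more they lay within 1% of FPKM times length times a constant, so they follow coverage estimates. FPKM, as the authors made them, are relative to transcript length and library size.

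From the deposited counts, which needed no rounding, edgeR 4.0.16 (R 4.3.3) gave the main result: TMM factors, a minimum count of 10 in filterByExpr, robust quasi-likelihood fits with genotype alone as term, and Benjamini-Hochberg adjustment over all tested genes. The design named counts as the unit, and these estimated counts were taken to meet it. TMM factors were 0.8145 to 0.9626 in Cys52Ser and 1.0452 to 1.2085 in WT, and the common biological coefficient of variation was 0.358. No 2 libraries of a group agreed within sampling noise (chi-square per degree of freedom 86.9 to 161). On simulated counts for 18103 genes of this comparison, the test recovered 33 of 50 genes raised and 27 of 50 lowered by 2 on the log2 scale, and 11 of 50 raised and 12 of 50 lowered by 1. Alternatives were RLE factors, library totals alone, no count filter, DESeq2 1.42.0, limma 3.58.1 on log2(FPKM + 0.5), with pseudocounts of 0.1 and 1 in place of 0.5, each library left out in turn, the replicate number as a block and, added after seeing the data, hepatocyte marker scaling. Gene pairs were compared by exact permutation. Near copies were GENCODE M21 transcripts matching a member's at 95% identity or more over 500 bases or more. Promoter sequences are RefSeq's, on GRCm38.p6.

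The members, roles, other pathway genes, markers and pairs were chosen with earlier results of these data known. All members may be named, with values per library for those past the threshold, those in the pairs and 9 further ones. Of the other pathway genes, those past the threshold are named. Other members are given by fold changes, except Dmgdh and Amt, given per library beside their partners. Dmgdh, Amt, Acta2, Des, Lum, Krt19, Gm44502 and Gm15622 were chosen for this after their values were seen.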

Additional observations from a re-analysis of the deposited data

How the results depend on the processing

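With RLE factors 11 members were higher, beside 514 of all 18648 genes. Without the count filter 11 were higher, beside 472 of 28601. DESeq2 called 19 members and 17 other pathway genes higher, beside 8.04% of all genes it tested. Library totals alone put 5 members and 17 other pathway genes lower, with a members' median of 0.13; limma on log2(FPKM + 0.5), log2(FPKM + 0.1) and log2(FPKM + 1) each put 5 members and 16 other pathway genes lower, with medians of 0.14, 0.13 and 0.14. The 5 were Chkb, Mat2b, Gatm, Cbs and Amt under each of these 4 settings. Of all 18648 tested genes, 2724 were lower with library totals alone and 2506, 2587 and 2439 in the limma fits. Hepatocyte marker scaling put 1 member and 0 other pathway genes higher, beside 0.408% of all tested genes. It put 9 members and 31 other pathway genes lower, beside 35.9%. It turned the members' median to -0.30, and turned 19 positive members negative. Of these, 5 were called in 1 of the 2 fits: Chka (-0.82), Pcyt1a (-0.34), Cept1 (-0.73), Chdh (-0.80) and Shmt2 (-0.07). The other 14, called in neither, had -0.71 to -0.08. This scaling also put the median of all genes at -0.80, so members and other genes shifted together. The cause of the difference between hepatocyte markers and other genes was not tested, nor was that of the difference between edgeR and DESeq2.

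Leaving out 1 library left 0 to 9 members higher, with members' medians of 0.37 to 0.51. Of the other pathway genes 0 to 6 were then higher and 0 to 5 lower. These fits called 0.145% to 4.06% of all genes in either direction. No member was lower in these 6 fits, and each had fewer samples than the full fit. Deviations of same-numbered replicates from their group means had correlations of 0.005, 0.166 and 0.064. Cys52Ser replicates 2 and 3 correlated best with their own number, and Cys52Ser replicate 1 with WT replicate 3 (0.161). With 3 libraries in a group these values cannot decide whether the numbers pair the libraries. With a replicate block 10 members were higher, gaining Aldh7a1 and Dmgdh and losing Mat1a and Pcyt1a, and 2 other pathway genes were lower. Of all 18648 genes, 426 were higher and 303 lower in that fit. In the simulation above, changes of 1 on the log2 scale were mostly missed at this sample size. It changed 50 genes for each size of change, drawn at random from all tested genes, whereas 928 genes were called in the data. Its rate of misses therefore need not hold for these data. The share missed was not worked out for the members themselves. Lack of a call alone does not show a member to be level. The 95% confidence intervals differed between uncalled members. With TMM factors those of Chdh (-0.29 to 0.34) and Chka (-0.28 to 0.30) excluded a change of 1, while those of Nnmt (-0.20 to 2.49) and Phgdh (-1.41 to 4.99) did not. These intervals do not take in the choice of scaling. With hepatocyte marker scaling Chdh (-0.80) and Chka (-0.82) were both called lower, beside 35.9% of all tested genes.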

Other observations

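A gene model antisense to Bhmt, Gm15622, named here after its values were seen, had 1.61, 2.85 and 3.41 CPM in Cys52Ser livers, against 0.190, 0 and 0.0347 CPM in WT livers (adjusted p = 0.045). Every Cys52Ser library lay above every WT library, while Bhmt itself did not pass the test. Whether these reads come from Bhmt cannot be told apart without the strand used in counting. At the Chkb locus, Gm44502 had 9.07, 6.94 and 6.62 CPM in Cys52Ser livers, against 2.85, 3.52 and 2.76 CPM in WT livers, with Chkb itself below WT in every library.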
